A study of Mus musculus with 24 samples.

Results

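Mature microRNAs (miRNAs) were counted by small-RNA sequencing in the subcutaneous fat of sedentary female mice, 6 libraries from wild type animals and 6 from animals with a kinase dead genotype. These 12 libraries were taken by their labels, sedentary with either genotype, from a series of 24 that also holds 6 trained libraries of each genotype. The labels name neither the kinase and how it was inactivated nor the strain and age of the mice. The values are counts of miRNA reads, so the genotype itself could not be checked against a transcript of the kinase. All mice ate chow. Trained mice ran on a treadmill and had a running wheel. Session length, days per week, weeks and speed were the same for all trained libraries, and housing temperature was the same for every library. The trained libraries enter here where the genotype difference is set beside its counterpart in trained mice. They also share the statistical fit with the sedentary libraries. The labels do not say that each library came from a separate animal, so every p-value measures the spread between these libraries, which may in part be technical.

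A miRNA is cut from a hairpin precursor, whose arms are called 5p and 3p by their end of origin. It guides an Argonaute protein to messenger RNAs that pair with its seed, bases 2 to 8 counted from its 5′ end, and miRNAs with the same seed are grouped as a family because they can pair with the same sites. A kinase dead protein is one that is made but cannot transfer phosphate. In a fat pad, miRNAs come from adipocytes and their precursors and equally from vessels, nerve, immune cells and circulating blood, so a bulk library reads all of these together.

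No miRNA differed between the genotypes beyond the spread between libraries. Of the 2045 loci in the table, 654 passed the filter on low counts, and 0 of them (0%) passed an adjusted p of 0.05 by edgeR's quasi-likelihood test (smallest adjusted p = 0.9964). At an unadjusted p under 0.05 there were 5 loci (0.765%) by edgeR and 6 (0.917%) by DESeq2, which also had 0 past the adjusted threshold. Evenly spread p-values would put 32.7 of the 654 loci there, and why fewer were found was not tested. The largest shifts among miRNAs of at least 100 CPM (reads scaled to the depth of the library) were in miRNAs made by red blood cells, whose 5 loci stood at 0.532 to 0.622 times the wild type level in kinase dead libraries. At 0 of the 654 loci (0%) did the ranges of the 2 groups stay apart.

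The sequences below, from RefSeq on GRCm38.p6, are those of miRNAs described below whose values or seed families carry the comparison, set beside relatives from the same hairpin or family. Capitals mark the seed.
miR-451a-5p: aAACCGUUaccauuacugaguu
miR-144-5p: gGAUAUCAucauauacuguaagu
miR-144-3p: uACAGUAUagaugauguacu
miR-101b-5p: uCGGUUAUcaugguaccgaugcu
miR-101b-3p: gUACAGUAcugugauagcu
miR-101a-3p: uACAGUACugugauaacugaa
let-7b-3p: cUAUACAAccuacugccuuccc
let-7b-5p: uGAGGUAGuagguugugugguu
miR-429-3p: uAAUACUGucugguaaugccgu
miR-200b-3p: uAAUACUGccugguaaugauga
miR-200c-3p: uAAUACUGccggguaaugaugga
miR-200a-3p: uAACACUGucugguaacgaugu
miR-141-3p: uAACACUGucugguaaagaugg
miR-28a-5p: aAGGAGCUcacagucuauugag
miR-708-5p: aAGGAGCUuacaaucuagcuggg
miR-21a-5p: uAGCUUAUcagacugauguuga

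The libraries themselves varied more than the genotypes. Totals ran from 1601209 to 20894237 reads for wild type and from 2607927 to 13682683 for kinase dead, and the log2 totals did not separate the groups (two-sided exact permutation test over 924 splits, p = 0.632, adjusted p = 0.768 over 2 tests, n = 6 each). The 10 most abundant loci held 51.05% ± 4.34 of reads in kinase dead and 50.35% ± 3.65 in wild type (SD, n = 6 each, exact permutation p = 0.768). Loci that share reads count separately in these percentages, among them both copies of miR-26a-5p, and miR-126b-5p with the opposite-strand miR-126a-3p. At these depths 3 reads stand for 0.139 to 1.8 CPM. The intervals given below come from edgeR's fit and include the spread between libraries as well as counting error. Across the 654 loci, the median share of the variance in log2 CPM that lay between the genotypes was 2.89%.

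Lymphocyte miRNAs marked 3 of the 12 libraries. miR-150-5p, which B and T cells make as they mature, stood at 6097 CPM in wild type replicate 1 and at 6467 and 5435 CPM in kinase dead replicates 5 and 6, against 590 to 1005 CPM in the other 9. miR-142a-5p, a miRNA of blood cells, split the libraries the same way, with 11390, 10680 and 7538 CPM against 655 to 1305 CPM. One group thus held 1 such library and the other 2, and the first principal component of log2 CPM (46.66% of the variance, 387 loci) placed these 3 at scores of 9.68 to 13.76 and the others at -6.02 to -1.88. Muscle miRNAs marked another pair, with miR-1a-3p (Mir1a-1 locus), the main miRNA of striated muscle, at 3327 CPM in wild type replicate 2 and 3641 CPM in kinase dead replicate 2, against 202 to 1101 CPM in the other 10.

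**Figure D1:**
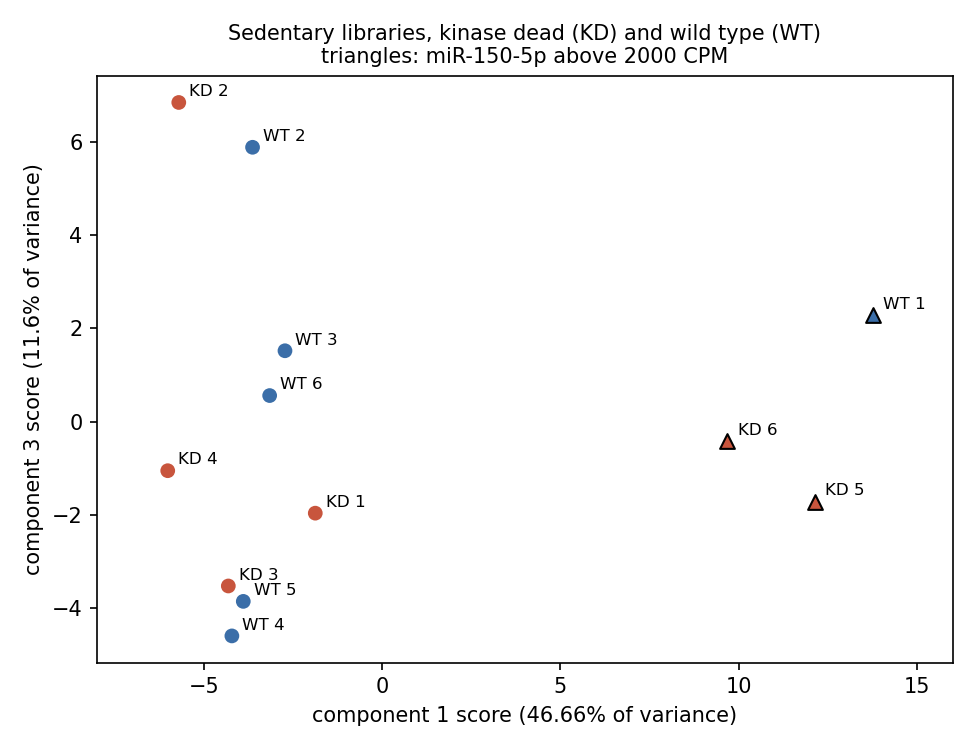
Each point is 1 sedentary library placed by its scores on principal components 1 (46.66% of the variance) and 3 (11.6%) of log2 CPM at 387 loci, red for kinase dead (KD) and blue for wild type (WT), with triangles for libraries above 2000 CPM of miR-150-5p. The 3 triangles lie apart on component 1 and the replicates numbered 2 of both genotypes lie highest on component 3, so neither axis separates the genotypes. Component 2 (12.81%), not drawn, ran from -8.44 to 4.41 in wild type and from -2.66 to 6.24 in kinase dead, so the genotypes overlapped there as well.

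Red cell miRNAs had the lowest median log2 difference among the lists with several tested loci. The list held 5 loci from 3 hairpins, and all 5 were measured: miR-451a-5p, miR-144-5p, miR-144-3p, miR-486-5p and miR-486-3p. Each had a negative log2 difference (kinase dead minus wild type), from -0.91 to -0.69 with a median of -0.86, while the median over all 654 loci was 0.01, with 342 higher and 312 lower. Of the 5, 3 had an unadjusted p under 0.05 in edgeR's test (0.612% of all loci did so in this direction) and 0 passed after adjustment (adjusted p = 0.9964). The summed level of the 5 ran from 2524 to 11240 CPM in wild type, with a median of 3357, and from 1564 to 5126 CPM in kinase dead, with a median of 2311. In bulk tissue, fewer cells of a type and less RNA per cell cannot be told apart.

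miR-451a is a red cell miRNA whose hairpin is cut by Argonaute 2 and not by Dicer, and it lies at chr11:78073186-78073207 on the plus strand (mm10), where GENCODE lists no other gene. In the wild type libraries, replicates 1 to 6, miR-451a-5p stood at 7009, 1738, 2023, 1733, 1842 and 3953 CPM. In kinase dead replicates 1 to 6 it stood at 1316, 3009, 935, 1646, 1496 and 1330 CPM. Wild type replicates 1 and 6 were high, kinase dead replicate 2 was the only one of its group above the wild type median, and the groups overlapped. The means were 3049 ± 2119 CPM in wild type and 1622 ± 720 CPM in kinase dead (SD, n = 6 each), a log2 difference of -0.91 (SE 0.37), or 0.532-fold with a 95% interval of 0.314 to 0.9. The unadjusted p was 0.0207 and the adjusted p 0.9964 (edgeR).

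Mir144 sits on the same strand with 99 bases between its hairpin and that of Mir451a, and both are known as a cluster switched on in red cell precursors. miR-144-5p, its minor arm, stood at 470, 195, 175, 73.8, 113 and 246 CPM in wild type replicates 1 to 6. The kinase dead libraries gave 123, 232, 84.0, 99.6, 73.8 and 82.7 CPM in the same order. Again wild type replicate 1 was highest and kinase dead replicate 2 was the only one above the wild type median, with a log2 difference of -0.87 (SE 0.39, unadjusted p = 0.0364, adjusted p = 0.9964, edgeR). miR-144-3p, the guide arm, averaged 458 ± 333 CPM in wild type and 285 ± 220 CPM in kinase dead (SD, n = 6 each), a log2 difference of -0.69 (SE 0.43).

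The third red cell hairpin, Mir486, lies in an intron of Ank1 (ankyrin 1, a protein of the red cell membrane skeleton) at chr8:23142587-23142649. miR-486-3p gave 1480, 473, 526, 301, 308 and 623 CPM in wild type and 313, 629, 220, 328, 297 and 254 CPM in kinase dead replicates 1 to 6, a log2 difference of -0.86 (SE 0.41, unadjusted p = 0.0466, adjusted p = 0.9964, edgeR). miR-486-5p averaged 520 ± 355 CPM in wild type and 296 ± 127 CPM in kinase dead (SD, n = 6 each), with a log2 difference of -0.81 (SE 0.41). The hairpin Mir3107 covers the same bases on the opposite strand, and its miR-3107-5p had the same means as miR-486-3p, so the 4 loci with lower values at an unadjusted p under 0.05 stand for 3 miRNAs.

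The size of the red cell shift rested on few libraries. Without wild type replicate 1 the median of the 5 log2 differences was -0.35, and miR-451a-5p stood at -0.43. Without kinase dead replicate 2 the median was -1.16. Kinase dead replicate 2 also had the highest summed level of striated muscle miRNAs (8368 CPM), and the part of muscle in these values was not tested. When the 7 libraries of the series with more than 2000 CPM of miR-150-5p were left out, among them wild type replicate 1, the median was -0.23 with all 5 still below 0. Wild type replicate 1 also had the highest summed level of lymphocyte miRNAs (26150 CPM). A lymphocyte score, the mean log2 CPM of miR-150-5p, miR-142a-5p and miR-155-5p, was added to the fit as a covariate. With it miR-451a-5p stood at -0.9 (SE 0.36) and miR-144-5p at -0.89 (SE 0.39). The cause of the red cell shift was not tested. Of the miRNAs listed as myeloid, miR-146a-5p was high in wild type replicate 1 (3589 CPM) and in kinase dead replicates 5 and 6 (3457 and 2618 CPM). These are the sedentary libraries rich in lymphocyte miRNAs, and the others stood at 840 to 1542 CPM. miR-223-3p, at 186 CPM in wild type replicate 1, lay within the wild type range of 163 to 240 CPM. In trained mice, which are other libraries, the median over the same 5 loci was 0.10, and miR-451a-5p had a log2 genotype difference of 0.35 (SE 0.36). The difference between the 2 contrasts was -1.26 for miR-451a-5p (SE 0.52, unadjusted p = 0.0227, adjusted p = 0.9996, edgeR interaction), so a change of the genotype difference with training did not pass.

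**Figure D2:**
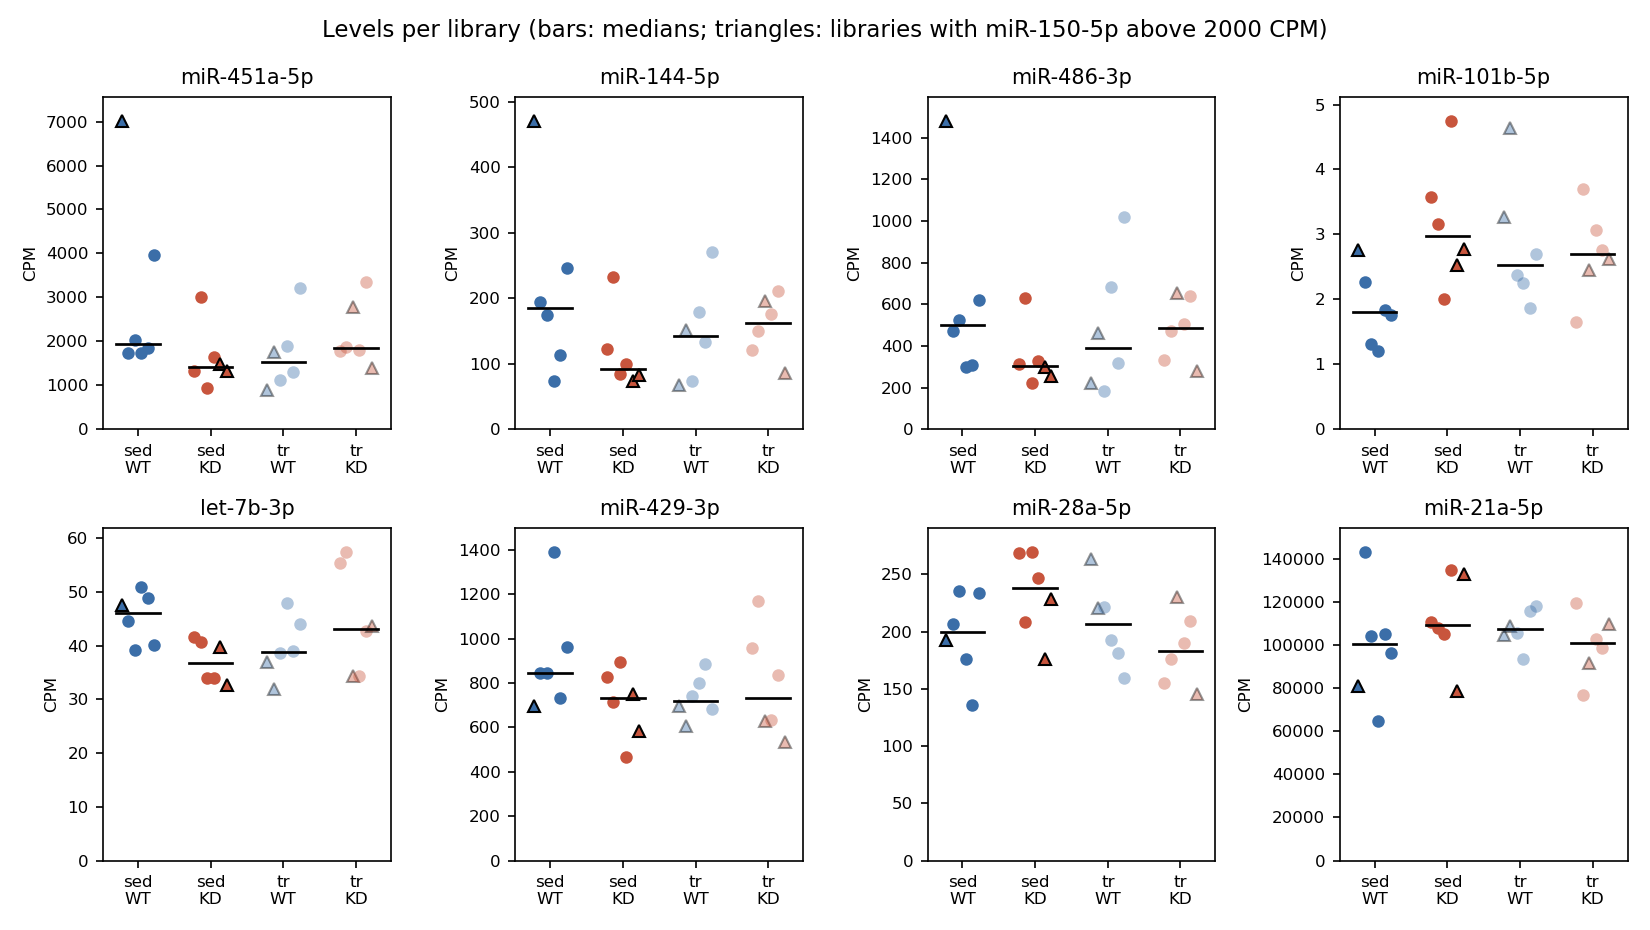
Level in CPM (linear axis from 0) of 8 miRNAs in every library, 6 per group, for sedentary (sed) and trained (tr) mice, wild type (WT, blue) and kinase dead (KD, red). Black bars are medians and triangles are libraries above 2000 CPM of miR-150-5p. Sedentary wild type replicate 1 stands at the top for miR-451a-5p, miR-144-5p and miR-486-3p, and no panel shows the sedentary groups apart.

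Among miRNAs with less than 100 CPM, miR-101b-5p had the smallest p of all loci and was the only one higher in kinase dead libraries at an unadjusted p under 0.05 (0.153% of loci). It is the minor arm of Mir101b, a hairpin in an intron of Rcl1 at chr19:29135302-29135356. The wild type libraries gave 2.76, 2.26, 1.31, 1.20, 1.84 and 1.76 CPM and the kinase dead libraries 3.58, 3.16, 2, 4.74, 2.53 and 2.78 CPM, replicates 1 to 6 in order. All 6 kinase dead libraries lay above the wild type median, and 2 of them lay within the wild type range. The log2 difference was 0.71 (SE 0.27), or 1.63-fold with a 95% interval of 1.11 to 2.39 (unadjusted p = 0.0144, adjusted p = 0.9964, edgeR), and in trained mice it was -0.08. With 3 reads worth up to 1.8 CPM, these levels rest on few reads in the shallower libraries.

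The main arm of the same hairpin, miR-101b-3p, was far more abundant, at 6431 ± 1237 CPM in wild type and 7344 ± 1174 CPM in kinase dead (SD, n = 6 each), a log2 difference of 0.19 with an interval of -0.12 to 0.50. miR-101a-3p, from Mir101a on chromosome 4, has another seed (ACAGUAC, against UACAGUA), and summed over that seed the log2 difference was 0.19 (SE 0.18). Other scarce miRNAs with higher means in kinase dead libraries were miR-466c-5p (Gm25285 locus, 1.28 ± 0.815 against 3.09 ± 3.11 CPM) and miR-669o-3p (1.94 ± 1.44 against 4.26 ± 3.49 CPM), both from the repetitive Sfmbt2 cluster on chromosome 2. Both were highest in the lymphocyte-rich kinase dead replicates 5 and 6, at 7.76 and 6.35 CPM for miR-466c-5p and 10.11 and 6.95 CPM for miR-669o-3p. miR-466c-5p has copies that share reads, so its values cannot be assigned to 1 hairpin.

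let-7b-3p, the minor arm of a let-7 hairpin, was the locus whose variance lay most between the genotypes (50.19%). It stood at 47.6, 44.5, 39.3, 51.0, 48.8 and 40.1 CPM in wild type and at 41.6, 40.8, 34.0, 33.9, 39.7 and 32.7 CPM in kinase dead replicates 1 to 6. None (0 of 6) of the kinase dead libraries reached the wild type median, yet 3 of them lay above the lowest wild type library. The log2 difference was -0.28 (SE 0.14), or 0.823-fold with an interval of 0.672 to 1.01 (unadjusted p = 0.0591, adjusted p = 0.9964, edgeR). In trained mice it was 0.16, and the difference between the contrasts was -0.44 (unadjusted p = 0.037, adjusted p = 0.9996, edgeR interaction). The arm that carries the let-7 seed, let-7b-5p, stood at 12590 ± 1966 CPM in wild type and 12150 ± 1279 CPM in kinase dead (SD, n = 6 each).

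Other scarce loci with lower means in kinase dead libraries were miR-103-2-5p, with a log2 difference of -0.66 (SE 0.35), miR-6988-3p at -0.56 (SE 0.31) and miR-6392-5p at -0.50 (SE 0.27). For miR-6392-5p none (0 of 6) of the kinase dead libraries lay above the wild type median. miR-5132-5p, from an exon of Irak1, was higher, at 0.545 ± 0.386 CPM in wild type and 0.974 ± 0.316 CPM in kinase dead, with 1 wild type library at 0 CPM. Each of these had an unadjusted p over 0.05 and an adjusted p of 0.9964 (edgeR). Their levels also rest on few reads in the shallower libraries, where 3 reads are worth up to 1.8 CPM.

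**Figure D3:**
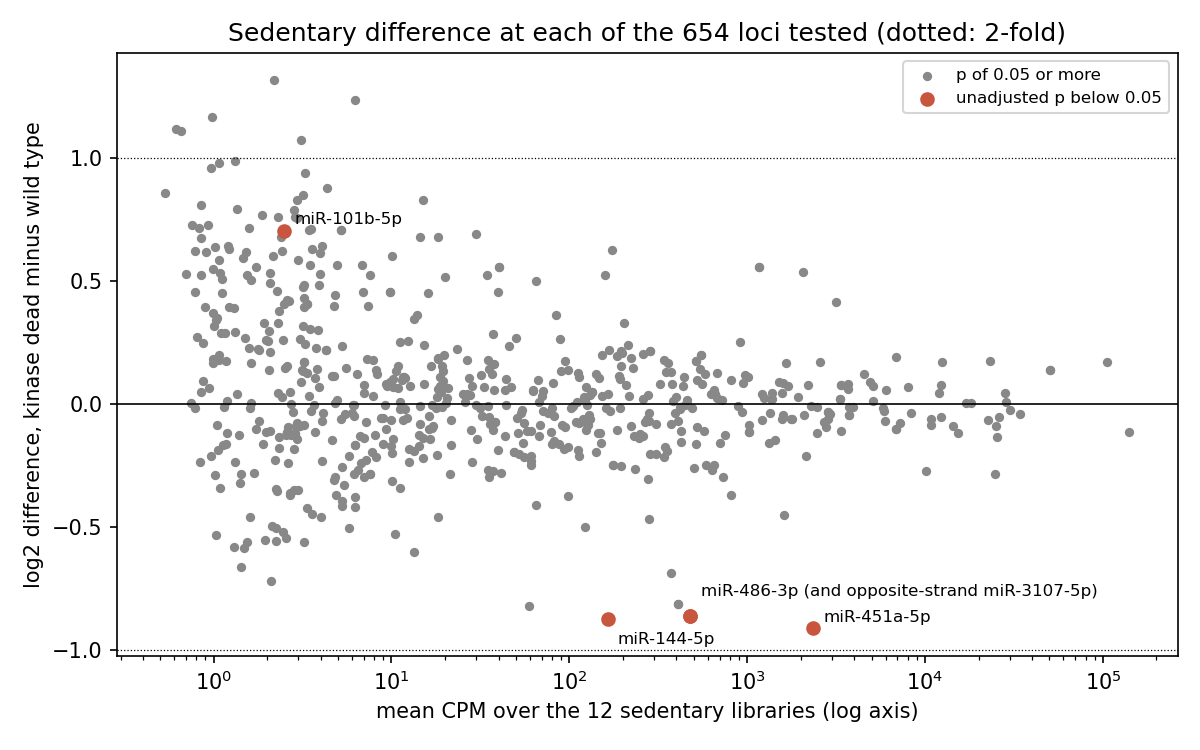
Log2 difference between the sedentary genotypes (kinase dead minus wild type) against the mean level over 12 sedentary libraries in CPM (log axis), 1 point for each of the 654 loci tested. Red points are the 5 loci with an unadjusted p under 0.05, and dotted lines mark a 2-fold difference. The spread narrows from left to right, and the red cell miRNAs stand alone at the lower edge above 100 CPM.

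Epithelial miRNAs of the miR-200 family, which restrain the transcription factors Zeb1 and Zeb2, had the next smallest p among lower loci of at least 100 CPM. The family has 2 seeds, one shared by miR-200b, miR-200c and miR-429 and one by miR-200a and miR-141, as printed above. miR-429-3p stood at 698, 844, 845, 1389, 733 and 961 CPM in wild type and at 825, 715, 893, 466, 751 and 584 CPM in kinase dead replicates 1 to 6. Wild type replicate 4 was highest and kinase dead replicate 4 lowest, and 1 of 6 kinase dead libraries passed the wild type median. The log2 difference was -0.37 with a 95% interval of -0.78 to 0.04, and without wild type replicate 4 it was -0.21. miR-200a-3p, the most abundant of the family, had 11010 ± 1952 CPM in wild type and 9116 ± 1769 CPM in kinase dead (SD, n = 6 each), a log2 difference of -0.27 with an interval of -0.61 to 0.07.

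Other members of the family lay closer to 0. miR-200b-3p, encoded beside miR-200a and miR-429 on chromosome 4, had a log2 difference of -0.06 (SE 0.22), and miR-200c-3p, from chromosome 6, of -0.04 (SE 0.20). Summed by seed, miR-200b, miR-200c and miR-429 differed by -0.09 (SE 0.20), and miR-200a with miR-141 by -0.26 (SE 0.17). miR-205-5p, a miRNA of basal epithelium, stood at 1854 ± 791 CPM in wild type and 1355 ± 506 CPM in kinase dead, a log2 difference of -0.45 with an interval of -1.06 to 0.15. miR-203-3p, a skin miRNA, stood at 2140 ± 402 and 2260 ± 384 CPM, a log2 difference of 0.08 (SE 0.15). Of the 13 tested epithelial loci 9 were lower and 4 higher, with a median of -0.06, and the summed level ran from 15230 to 25270 CPM in wild type and from 14500 to 22940 CPM in kinase dead.

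Further loci of at least 100 CPM with lower means were miR-31-5p, known for restraining adipogenesis, and miR-181d-5p, a member of the miR-181 family of lymphocytes and other cells. miR-31-5p had 143 ± 72.7 CPM in wild type and 101 ± 31.0 CPM in kinase dead (SD, n = 6 each), a log2 difference of -0.50 (SE 0.29). miR-181d-5p had 305 ± 99.7 and 247 ± 29.7 CPM, a log2 difference of -0.30 (SE 0.18). For both, wild type replicate 4 was the highest library, at 282 and 497 CPM, and without it the log2 differences were -0.19 and -0.11. Wild type replicate 4 was also the shallowest library, with 1601209 reads.

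Of the loci of at least 100 CPM with higher means in kinase dead libraries, those of smallest p had log2 differences of 0.15 to 0.26. Larger but less certain values included those of leukocyte miRNAs that were high in kinase dead replicates 5 and 6, with miR-150-5p at 0.54 (SE 0.83). Others were miR-184-3p, at 0.52 (SE 0.53), and miR-15b-5p, at 0.33 with an interval of -0.55 to 1.21. miR-28a-5p, from an intron of Lpp, stood at 192, 207, 236, 176, 136 and 234 CPM in wild type and at 269, 208, 269, 247, 176 and 229 CPM in kinase dead replicates 1 to 6. In kinase dead, 5 of 6 libraries lay above the wild type median, and the ranges overlapped over most of their length. The log2 difference was 0.24 with a 95% interval of -0.08 to 0.57, and the other arm, miR-28a-3p, had 0.15 with an interval of -0.11 to 0.40. miR-708-5p shares the miR-28a-5p seed, and summed over both the difference was 0.06 (SE 0.20).

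The remaining 6 loci of at least 100 CPM with the smallest p in this direction were miR-151-3p (log2 difference 0.26, SE 0.17), miR-30e-3p (0.22, SE 0.18), miR-194-5p at its Mir194-1 locus (0.20, SE 0.15), miR-101b-3p, miR-21a-5p and miR-378a-3p. miR-21a-5p, a miRNA of stressed and proliferating tissue and the second most abundant locus, stood at 81100, 143000, 104300, 64840, 105200 and 96440 CPM in wild type. In kinase dead replicates 1 to 6 it stood at 110700, 108100, 105100, 134700, 78510 and 133100 CPM. The log2 difference was 0.17 with an interval of -0.14 to 0.48. miR-378a-3p, encoded in Ppargc1b and known for promoting brown fat, had 11730 ± 1886 CPM in wild type and 13200 ± 2234 CPM in kinase dead, a log2 difference of 0.17 (SE 0.14). In trained mice all 8 of these higher loci had a negative genotype difference, from -0.24 to -0.11, and no interaction passed (adjusted p = 0.9996, edgeR).

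**Figure D4:**
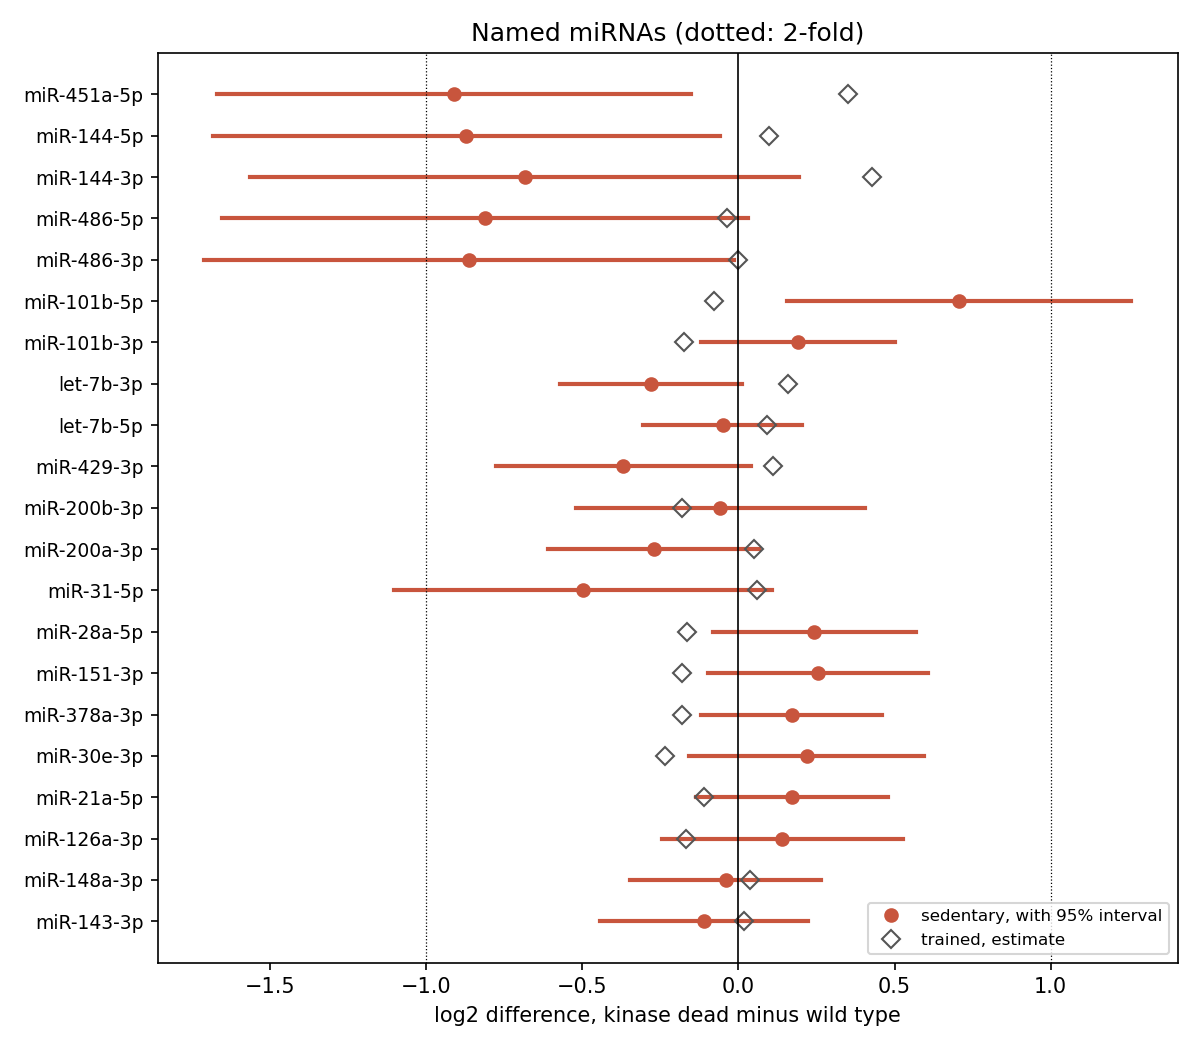
Log2 genotype difference (kinase dead minus wild type) of 21 named miRNAs, in sedentary libraries with the 95% interval of edgeR's fit (red) and in trained libraries as the estimate only (open diamonds), with dotted lines at a 2-fold difference. Intervals of the red cell miRNAs pass below a 2-fold decrease, while those of abundant miRNAs such as miR-148a-3p and miR-143-3p lie within 2-fold on both sides.

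The abundant miRNAs of fat gave the tightest bounds. miR-143-3p, a miRNA of vessel walls that also promotes adipogenesis, was the most abundant locus, at 146100 ± 26630 CPM in wild type and 135300 ± 35560 CPM in kinase dead (SD, n = 6 each), and its fold was 0.926 with an interval of 0.735 to 1.17. miR-148a-3p, which promotes adipogenesis, had a fold of 0.972 with an interval of 0.786 to 1.20. miR-30a-5p, another pro-adipogenic miRNA, had 0.985 (0.777 to 1.25), and miR-126a-3p, made in endothelium from an intron of Egfl7, 1.10 (0.844 to 1.44). All 25 loci of at least 10000 CPM had intervals within 2-fold, as did 194 of the 227 loci of at least 100 CPM (85.46%), and the median distance from the estimate to an end of its interval was 0.38 on the log2 scale. The 33 loci of at least 100 CPM with a wider interval included the red cell miRNAs, miR-142a, miR-150-5p and miR-155-5p of leukocytes, miR-1a-3p and miR-133a-3p of muscle, and miR-193a-3p, miR-184-3p and miR-29b-3p.

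miRNAs grouped by their known action in fat showed no list with a locus past the threshold. Among 15 tested loci of miRNAs that promote adipogenesis, 9 were higher and 6 lower, with a median log2 difference of 0.04. Of 16 loci that restrain it, 6 were higher and 10 lower, with a median of -0.09. miR-27b-3p, which targets Pparg, stood at 11900 ± 1611 CPM in wild type and 12560 ± 992 CPM in kinase dead (SD, n = 6 each), and miR-221-3p at 742 ± 97.8 and 666 ± 70.0 CPM. Of 24 loci that promote brown or beige adipocytes 12 were higher and 12 lower, with a median of 0, and miR-193b-3p and miR-365-3p, which is encoded in part beside it, had log2 differences of -0.20 (SE 0.18) and -0.19 (SE 0.18, Mir365-2 locus). Of 17 loci that restrain them 6 were higher and 11 lower, with a median of -0.04. Of 38 loci linked to insulin action 16 were higher and 22 lower, with a median of -0.04, and miR-103-3p (Mir103-1 locus), which restrains insulin signalling, differed by 0.07 (SE 0.15). miR-210-3p, the main miRNA of hypoxia, stood at 536 ± 59.2 CPM in wild type and 503 ± 73.1 CPM in kinase dead.

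Named families and genomic clusters shifted as little. Their loci include both arms of a hairpin, so the members of a list do not all share 1 seed. Of 24 let-7 loci 16 were lower and 8 higher, with a median of -0.06, against 0.16 in trained mice. Over 11 miRNA names with the let-7 seed GAGGUAG, the summed level was 131000 ± 12430 CPM in kinase dead and 136100 ± 18480 CPM in wild type (SD, n = 6 each). In the family of miR-125, miR-100, miR-99 and miR-10 14 of 16 loci were lower, with a median of -0.06 and a range of -0.21 to 0.08, but without the 7 lymphocyte-rich libraries 8 were lower and 8 higher. The miR-30 family (12 loci), the miR-29 family (8) and the miR-15/16 family (14) had medians of 0.03, 0.03 and 0.09. The family of miR-93, miR-17, miR-106 and miR-20 (10 loci) had -0.06, with miR-93-5p at 1396 ± 221 CPM in wild type, 1251 ± 161 CPM in kinase dead (SD, n = 6 each), and 0 of 6 kinase dead libraries above the wild type median. Without the 7 lymphocyte-rich libraries its median was -0.18, with 0 of 10 higher, and without wild type replicate 1 it was 0.07. The family of miR-34 and miR-449 (6 tested of 11) had 0.11.

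The Dlk1-Dio3 cluster, an imprinted region of chromosome 12 whose miRNAs are made from the maternal copy, had 61 tested loci of 107, with 44 lower and 17 higher and a median of -0.09. The direction turned with single libraries: without wild type replicate 4 the median was 0.04, without wild type replicate 5 it was 0.05, and with the lymphocyte score as a covariate it was 0.03. Without the 7 lymphocyte-rich libraries it was -0.23, with 51 of 63 loci lower, and with the 12 sedentary libraries alone -0.12, with 40 of 51 lower. miR-127-3p, its most abundant miRNA, had 1514 ± 560 CPM in wild type and 1368 ± 212 CPM in kinase dead (SD, n = 6 each), and wild type replicate 4 held the highest value, 2434 CPM. miR-379-5p went the other way, with 515 ± 175 and 569 ± 194 CPM.

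Summed by seed, 0 of 385 families passed (smallest adjusted p = 0.9936, edgeR), and 3 had an unadjusted p under 0.05 (0.779%). These were the families of miR-101b-5p (seed CGGUUAU), miR-451a-5p (AACCGUU) and miR-144-5p (GAUAUCA), each with 1 member. Of the 40 families of at least 1000 CPM, 36 had an interval within 2-fold and 29 within 1.5-fold. miR-26a with miR-26b (seed UCAAGUA) reached 64690 ± 11070 CPM in kinase dead and 63100 ± 14520 CPM in wild type, a log2 difference of 0.04 (SE 0.15). Among scarcer families miR-129-5p (UUUUUGC), a miRNA of nerve, was at 93.3 ± 43.2 against 65.2 ± 11.7 CPM, a log2 difference of 0.52 (SE 0.29).

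Lists of other cell types gave these values beside the results. Of 15 lymphocyte and leukocyte loci 12 were higher and 3 lower in kinase dead, with a median of 0.16, and the group with 2 lymphocyte-rich libraries was kinase dead. Without the 7 lymphocyte-rich libraries of the series, 3 of 14 were higher, with a median of -0.10, and without wild type replicate 1 alone the median was 0.88. The 7 libraries were chosen by their level of miR-150-5p, a member of this list. The summed lymphocyte level ran from 4515 to 25960 CPM in kinase dead and from 4693 to 26150 CPM in wild type. Striated muscle loci (9 tested of 18) had a median of -0.21, which was -1.26 without kinase dead replicate 2 and 0.49 without wild type replicate 2, and summed levels of 476 to 8368 and 689 to 7503 CPM. In trained mice the muscle median was -1.42. Myeloid loci (4) had a median of 0.04, smooth muscle loci (4) -0.16, nerve loci (16) 0.15 and the endothelial miR-126a loci (2) 0.05. miR-145a-5p, the smooth muscle partner of miR-143, stood at 2284 ± 253 CPM in wild type and 1974 ± 276 CPM in kinase dead, with 0 of 6 kinase dead libraries above the wild type median. miR-122-5p, the liver miRNA, was at 7.59 to 224.5 CPM in wild type and 5.60 to 88.3 CPM in kinase dead, a log2 difference of -0.82 (SE 0.92) that was -0.09 without wild type replicate 5.

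**Figure D5:**
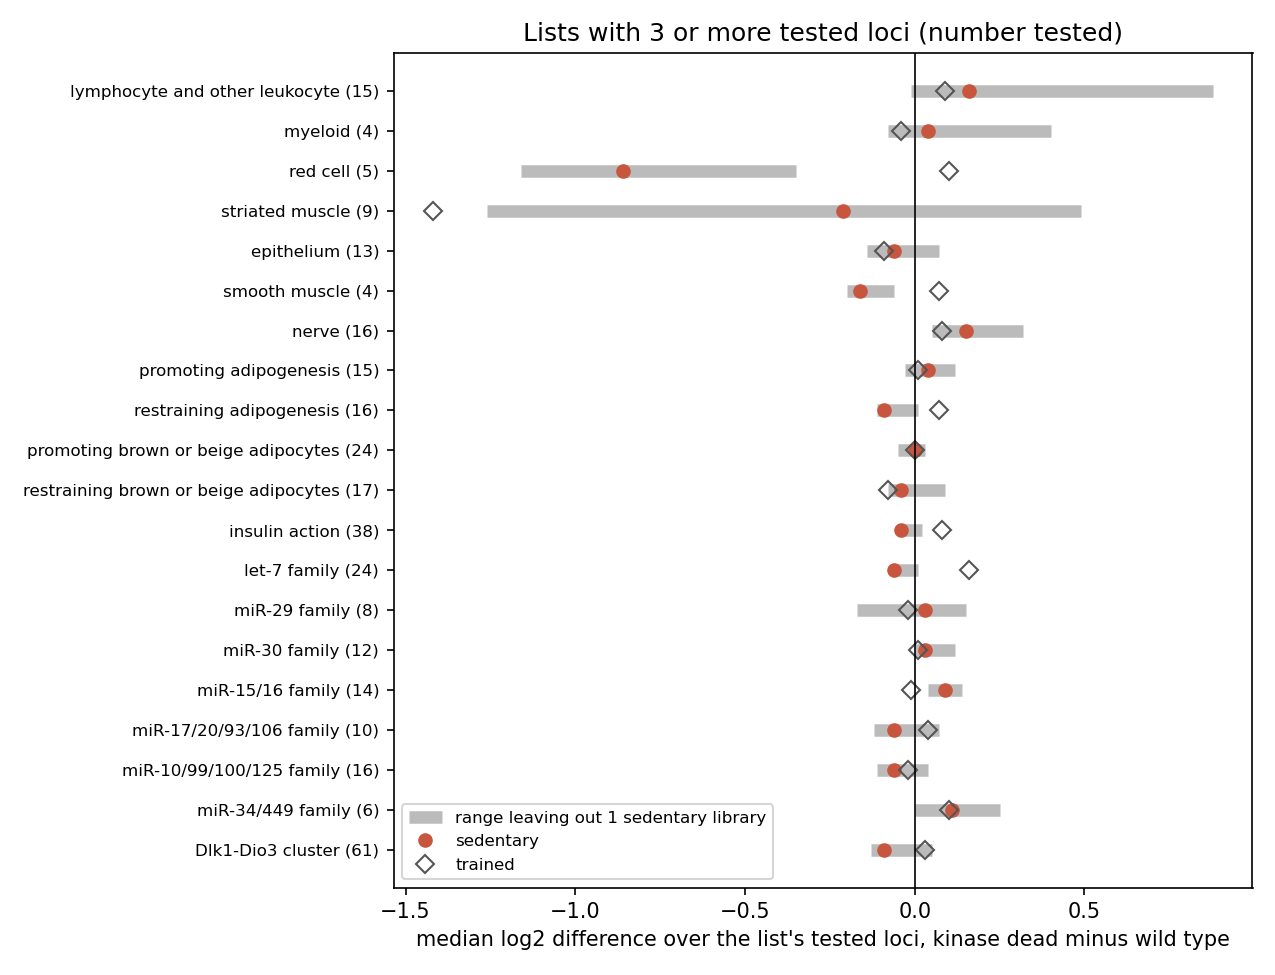
Median log2 genotype difference (kinase dead minus wild type) over the tested loci of each list, the number tested in brackets, in sedentary libraries (red) and trained libraries (open diamonds). Grey bars span the medians when 1 sedentary library is left out. The red cell list lies below 0 over its whole bar, and the muscle bar spans 0.

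The choice of arm was compared within libraries, as log2 of 5p over 3p reads, at 235 hairpins. None passed (0 of 235, smallest adjusted p = 0.454, limma), and 11 had an unadjusted p under 0.05 (4.68%). Mir485, a hairpin of the Dlk1-Dio3 cluster, led with a ratio of -0.75 ± 0.36 in wild type and -0.18 ± 0.24 in kinase dead (SD, n = 6 each), a difference of 0.57 (SE 0.17). In wild type replicates 1 to 6 the log2 ratio was -1.23, -0.93, -0.45, -0.38, -1.05 and -0.47, and in kinase dead -0.13, -0.54, 0, 0.14, -0.20 and -0.34. The groups overlapped, the shares rested on medians of 33.5 and 47.5 reads per arm, and the difference in trained mice was -0.12. Mir218-2 followed with 1.27 (SE 0.39), on a median of 1.5 reads of its 3p arm, and without wild type replicate 2 it passed at 1.60 (SE 0.35, adjusted p = 0.0321, limma). Mir218-1, whose 5p median was close to that of Mir218-2 (2059.5 and 2049 reads), differed by 0.17 (SE 0.54). Mir541 differed by 1.10 (SE 0.43), Mir1198 by -1.13 (SE 0.48), Mir34a by -0.82 (SE 0.41) and Mir582 by -0.48 (SE 0.25). The 3p arms of Mir541, Mir1198 and Mir34a had medians of 2, 2 and 3 reads and a lowest value of 0. Their ratios thus rest on few reads and on the added 0.5.

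The dominant arm was the same in both genotypes at 233 of 235 hairpins. The exceptions were Mir296, with a log2 ratio of 0.28 ± 0.76 for wild type against -0.46 ± 0.81 for kinase dead, and Mir151, with 0 ± 0.86 and -0.23 ± 0.63 (SD, n = 6 each). Both ratios lay near equal use of the arms, and their differences did not pass (unadjusted p = 0.0766 and 0.647, adjusted p = 0.989 for both, limma).

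Set beside the same contrast in trained mice, which shares no library with it, the sedentary difference had the same sign at 280 of the 654 loci and the opposite sign at 374. In trained mice 0 loci passed and 6 had an unadjusted p under 0.05 (0.917%, edgeR). For the difference between the 2 contrasts 0 loci passed (smallest adjusted p = 0.9996), with 13 (1.99%) at an unadjusted p under 0.05 by edgeR and 14 (2.14%) by DESeq2. Loci that share reads count separately in these numbers.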

How the data were processed

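The authors deposited raw counts, 1 column for each library and 1 row for each mature miRNA locus, not normalized. The submitters' processing notes list CASAVA 1.8.2, Bowtie2, Trim Galore and featureCounts with build mm10, in no stated order. TRIzol extraction and a NEBNext small RNA kit are given per the labels' protocols. Other versions, and whether counting used strand or multiple mapping, were not found in the labels or notes. Totals of 23 out of 25 overlapping opposite-strand pairs with at least 1000 reads matched to within 1%, so strands were not told apart, and 216 loci share their mature sequence with another. Loci were named from RefSeq (1670) and GENCODE (375), and 1674 had a RefSeq sequence.

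Counts were tested by quasi-likelihood in edgeR 4.0.16 under R 4.3.3, using TMM factors and filterByExpr, in 1 fit of 4 groups of 6. P-values were adjusted by Benjamini-Hochberg over 654 loci. The 1391 untested loci held 0.0166% of reads. CPM values are scaled by the TMM factors. Seed families were tested on summed counts, and arm ratios, log2 of (5p + 0.5) over (3p + 0.5), by limma 3.58.1. Scripts were tested on simulated data. Smallest chi-square per degree of freedom between any 2 sedentary libraries was 35.5, so none looked deposited in duplicate. Replicate numbers follow accession order and pair nothing. No batch is labelled.

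Named loci were, in each direction, the 8 of smallest p at 100 CPM or more and the 4 below it, the 8 most abundant, the 2 most abundant of each list, and the 3 leading seed families and arm ratios in each direction. Relatives of these, and miR-205-5p, miR-203-3p, miR-221-3p, miR-193b-3p, miR-365-3p and miR-103-3p as list examples, were chosen after their values were seen. The members and lists were chosen with earlier results of these data known. Alternatives were DESeq2 1.42.0, limma-voom, other scalings and filters, the 12 libraries alone, copies summed, lymphocyte-rich libraries left out or a lymphocyte covariate, and each library left out. An alternative without the replicates numbered 2, which are rich in muscle miRNAs, was chosen after seeing the data.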

Additional observations from a re-analysis of the deposited data

Results flagged for a closer look

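The highest or lowest library of a group of 6 was compared with the gap to its nearest neighbour (Dixon's criterion) for 63 values in each sedentary group. For independent values with a normal spread it flags about 1 in 20 such groups. Most of these values are CPM on a linear scale, and miRNAs that vary together count separately, so that rate is not a yardstick here. The criterion was met by 12 of 63 in wild type and 12 of 63 in kinase dead. Wild type replicate 1 stood apart in 6 of them, on the high side: miR-486-3p at 1480 CPM (the others 301 to 623), miR-486-5p at 1205 CPM, miR-142a-5p at 11390 CPM, miR-150-5p at 6097 CPM, miR-146a-5p at 3589 CPM and miR-128-3p (Mir128-1) at 453 CPM.

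Kinase dead replicate 2 stood apart in 7, again high: miR-451a-5p at 3009 CPM (the others 935 to 1646), miR-144-5p at 232 CPM, miR-486-3p at 629 CPM, miR-486-5p at 543 CPM, miR-1a-3p (Mir1a-1) at 3641 CPM, miR-133a-3p (Mir133a-1) at 497 CPM and miR-29b-3p (Mir29b-1) at 1453 CPM. Wild type replicate 2 was high for the same muscle miRNAs, with miR-1a-3p (Mir1a-1) at 3327 CPM and miR-133a-3p (Mir133a-1) at 356 CPM. In wild type the other values were miR-181d-5p at 497 CPM in replicate 4, miR-148a-3p at 44100 CPM in replicate 3, miR-93-5p at 976 CPM in replicate 5 (low) and a library total of 20.89 M reads in replicate 6. In kinase dead they were miR-103-2-5p at 2.18 CPM in replicate 6, miR-26a-5p (Mir26a-1) at 37650 CPM in replicate 4, miR-128-3p (Mir128-1) at 320 CPM and let-7g-5p at 30230 CPM in replicate 5, and miR-210-5p at 5.20 CPM in replicate 3.

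No named miRNA had a genotype difference that changed with training by the interaction test (0 passed).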

How the results depend on the processing

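No locus (0) passed the adjusted threshold with DESeq2, limma-voom, RLE size factors, library totals, no filter, a mean of at least 10 CPM, the 12 libraries alone or copies summed, nor in the alternatives for lymphocyte- and muscle-rich libraries. The smallest adjusted p among these was 0.882, without the filter, where 74 of 1701 loci had an unadjusted p under 0.05 against 5 of 654. That count was 12 with limma-voom, 3 with RLE, 18 without the 7 lymphocyte-rich libraries, 13 with the lymphocyte covariate, 16 without the muscle-rich libraries and 6 to 25 with each library left out. Seed families and the interaction also had 0 calls, and arm ratios 0 to 1 with each library left out. No paired analysis was possible because replicate numbers follow accession order and are not in the labels.

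Of 668 values for other settings, 627 kept their direction and 41 turned. The cause was not tested. Without the 7 lymphocyte-rich libraries the log2 differences that turned were miR-143-3p 0.07, miR-148a-3p 0.15, miR-30a-5p 0.14, miR-99a-5p 0, miR-142a-5p -0.17, miR-150-5p -0.22, miR-146a-5p -0.04, miR-1a-3p (Mir1a-1) 0.19, miR-200b-3p 0.07, miR-126a-5p 0.06, miR-128-3p (Mir128-1) 0.24, miR-125b-5p (Mir125b-1) 0.07, miR-20a-5p -0.12 and miR-10b-5p 0.07. With the lymphocyte covariate they were miR-30a-5p 0.01, miR-99a-5p 0.02, miR-142a-5p -0.09, miR-150-5p -0.03, miR-146a-5p -0.05, miR-200b-3p 0.01, miR-125b-5p 0.02 and miR-20a-5p -0.04. With limma-voom they were miR-148a-3p 0.03, miR-30a-5p 0.05, miR-133a-3p (Mir133a-1) -0.45, miR-128-3p 0.18, miR-195a-5p -0.01 and miR-10b-5p 0.01. Without a filter they were miR-30a-5p 0, miR-128-3p 0.03 and miR-125b-5p 0.02, with library totals miR-128-3p 0.01, and at 10 CPM or more miR-125b-5p 0. Without the muscle-rich libraries they were miR-30a-5p 0.02, miR-99a-5p 0.06, miR-133a-3p -0.57, miR-200b-3p 0.05, miR-128-3p 0.02, miR-338-3p -0.21, miR-210-3p 0.03 and miR-29b-3p (Mir29b-1) -0.33. The lymphocyte covariate is built from miR-150-5p, miR-142a-5p and miR-155-5p, and the lymphocyte-rich libraries were chosen by miR-150-5p. How these miRNAs turned in those settings thus follows in part from the settings themselves.

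With each library left out, these log2 differences crossed 0: let-7g-5p (-0.16 to 0.04), miR-10b-5p (-0.14 to 0.03), miR-125b-5p (-0.05 to 0.13), miR-126a-5p (-0.11 to 0.1), miR-127-3p (-0.21 to 0.04), miR-128-3p (-0.31 to 0.66), miR-133a-3p (-1.33 to 0.82), miR-142a-5p (-0.29 to 1.92), miR-143-3p (-0.19 to 0.02), miR-146a-5p (-0.12 to 0.64), miR-148a-3p (-0.11 to 0.08), miR-150-5p (-0.02 to 1.63), miR-195a-5p (-0.03 to 0.18), miR-1a-3p (-1.17 to 0.78), miR-200b-3p (-0.16 to 0.09), miR-20a-5p (-0.07 to 0.2), miR-210-3p (-0.13 to 0.01), miR-210-5p (-0.37 to 0.04), miR-26a-5p (-0.05 to 0.17), miR-27a-3p (-0.02 to 0.19), miR-29a-3p (-0.19 to 0.01), miR-29b-3p (-0.3 to 0.19), miR-30a-5p (-0.12 to 0.12), miR-338-3p (-0.25 to 0.32), miR-34c-5p (-0.01 to 0.25), miR-379-5p (-0.01 to 0.32) and miR-99a-5p (-0.2 to 0.11). The log2 library total differed by 0 to 0.74 and the share of the 10 most abundant loci by -0.37 to 2.06 percentage points. Red cell miRNAs and miR-101b-5p kept their direction in all of these. An interval within 2-fold was found at 446 of all 654 loci and at 194 of the 227 loci of at least 100 CPM.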

Other observations

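Among 214 loci of at least 100 CPM, counting opposite-strand pairs once, the median SD of log2 CPM over the 12 sedentary libraries was 0.31. Beside the leukocyte and muscle miRNAs (miR-142a-3p 1.59, miR-150-5p 1.39, miR-1a-3p at Mir1a-1 1.34, miR-155-5p 1.32), the loci with the largest SD included miR-193a-3p at 1.17, miR-92a-3p at its Mir92-2 locus at 1.05 and miR-184-3p at 1.02. These 3 belong to none of the lists, and their genotype differences did not pass.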
